A study of Homo sapiens with 7 samples.

Results

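The inhibitor of apoptosis proteins (IAPs) and their neighbours in the pathway were followed across 7 Hodgkin lymphoma (HL) cell lines. The genes were BIRC2, BIRC3, XIAP, BIRC5, NAIP, BIRC6, BIRC7, CFLAR and DIABLO, chosen by family and because the BIRC2 value of SUP-HD1 had been seen to be very low. Their values were those of every probe set of the array that the platform annotation gave to one of these genes alone. Of the 9 genes, 8 were measured, through 33 probe sets, out of 19775 genes in all. No probe set is named for BIRC3 in the annotation used here, so BIRC3 was not analysed here, and the genes beside the BIRC2 and BIRC3 pair on chromosome 11 take its place in the comparison.

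SUP-HD1, L-540, HDLM-2, U-HO1, KM-H2, L-428 and L-1236 are established HL lines, each a culture descended from malignant cells of 1 patient, and each stood on 1 array of total RNA. The characteristics field spells HDLM-2 as HDML-2. No line had a replicate, so no test between lines was possible and every difference is a description of these arrays. The study took arrays from 2 laboratories without saying which line came from which, so that laboratory and line cannot be told apart. Levels are the authors' RMA values on a log2 scale, on which a difference of 1 is 2-fold. They are set against each other only between lines at the same probe set.

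Programmed cell death is carried out by caspases, proteases that are kept in check by IAPs. XIAP binds and blocks caspases directly, whereas BIRC2 and BIRC3 (cIAP1 and cIAP2) are ubiquitin ligases at TNF receptors, where they regulate NF-kB signalling and keep the death-inducing complex from forming. CFLAR encodes cFLIP, a caspase-8 relative that acts at death receptors and is itself an NF-kB target gene. DIABLO (SMAC) leaves the mitochondrion during apoptosis and displaces IAPs from caspases. BIRC5 (survivin) serves mainly in cell division, BIRC6 is a giant ubiquitin-conjugating enzyme, and NAIP is a sensor of bacterial proteins. Constitutive NF-kB activity is a known trait of Hodgkin/Reed-Sternberg cells, the malignant cells of HL.

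The stretches before the genes of 3 members on which the results turn are shown first, as RefSeq gives them on GRCh38.p14. Each runs for 300 bases, with 250 before and 50 after an annotated start, and is the most upstream of the windows held for its gene. BIRC2 and BIRC6 are shown because they shared their lowest line, and CFLAR because it had the largest range of the members above background in all lines. Capitals mark GGGCGG (the GC box) and the kappaB motif bound by NF-kB factors, both searched on both strands, and the 2 motifs overlap in the BIRC6 and CFLAR stretches. The BIRC2 stretch is chr11:102346964-102347263, the BIRC6 stretch chr2:32356773-32357072 and the CFLAR stretch chr2:201118466-201118765, all on the plus strand.
BIRC2: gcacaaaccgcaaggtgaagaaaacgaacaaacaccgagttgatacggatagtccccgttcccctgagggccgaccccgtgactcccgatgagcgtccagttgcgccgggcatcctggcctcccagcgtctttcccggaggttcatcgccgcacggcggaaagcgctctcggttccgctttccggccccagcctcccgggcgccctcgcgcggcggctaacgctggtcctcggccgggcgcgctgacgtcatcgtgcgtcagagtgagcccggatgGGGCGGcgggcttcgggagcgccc
BIRC6: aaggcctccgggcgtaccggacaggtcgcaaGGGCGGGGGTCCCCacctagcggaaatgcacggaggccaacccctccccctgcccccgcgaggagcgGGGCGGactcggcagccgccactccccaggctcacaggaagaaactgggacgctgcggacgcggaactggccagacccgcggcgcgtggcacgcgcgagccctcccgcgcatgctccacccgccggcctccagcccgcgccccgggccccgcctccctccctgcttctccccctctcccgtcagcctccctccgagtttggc
CFLAR: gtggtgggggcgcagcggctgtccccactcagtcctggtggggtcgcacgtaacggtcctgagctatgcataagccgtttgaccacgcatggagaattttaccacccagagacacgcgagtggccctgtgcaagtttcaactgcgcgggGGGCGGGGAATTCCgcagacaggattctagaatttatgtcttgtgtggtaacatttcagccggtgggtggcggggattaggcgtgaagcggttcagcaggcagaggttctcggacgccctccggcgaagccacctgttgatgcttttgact
The BIRC2 stretch held 40 CpG dinucleotides and the BIRC6 stretch 34, while CFLAR had 21, against a median of 14 over 34796 such windows of all genes. A kappaB match lay in 3 of the 16 windows of measured members (1 of BIRC6, BIRC7 and CFLAR each), and in 11.3% of all windows. GGGCGG was found in 11 of the 16, against 44.9% of all windows. Windows were held for 6 of the 8 measured members, BIRC5 and NAIP being the others. These matches describe letters only and say nothing of binding.

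Across the arrays, background (a level below which 95% of 105 olfactory receptor probe sets lay) was 5.59 in L-1236 and 4.49 to 4.86 in the others. L-1236 also had the fewest genes above it, 8609 against 10554 to 11636. U-HO1 stood apart in its 18S ribosomal RNA signal, at 11.12 against 5.23 to 7.06, and in ACTB, where the 3' end lay 2.11 above the 5' end, against 0.06 to 0.54 elsewhere. With no replicates, genes read by several probe sets stood in for technical spread: the SD among them, pooled over 5045 genes, was 0.54 on the log2 scale. Probe sets of a gene can read different transcripts, so this SD is only a rough guide and not the error of 1 probe set between arrays. The SD reached 0.82 in U-HO1 and 0.67 in L-1236, against 0.41 to 0.45 in the other lines. Of 8 markers of Hodgkin/Reed-Sternberg cells, 6 to 8 were above background in a line, and IRF4 (9.61 to 10.79) and CCL17 were among those above it in all lines. TRAF1 was below background in L-1236 (4.97), and CCL22 was below background in L-1236 (5.38) and L-428 (4.65). The CD30 gene TNFRSF8 was below it in SUP-HD1, at 4.36 against 6.13 to 10.99 in the other lines. MS4A1, the B-cell gene for CD20, was below background in all lines. Single genes of other lineages were high in single lines, such as CD3D with 8.89 in KM-H2, CD2 with 8.95 in HDLM-2 and NKG7 with 11.22 in L-540, and their part in the results was not tested. Over whole lists, 1 to 5 of 8 T- and NK-cell markers, 1 to 4 of 6 B-cell markers and 0 to 3 of 5 myeloid markers were above background in a line. The log2 of the summed T- and NK-cell marker level was 11.40 in L-540 and 7.17 to 9.33 in the other lines.

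Of the 8 measured members, 6 lay above background in all 7 lines, as did 47.2% of 14495 genes above background in at least 1 line. BIRC2 fell short only in SUP-HD1, and NAIP in L-1236, L-428 and SUP-HD1. Between the lowest and the highest line, 5 of the 8 members differed by at least 2, a range reached by 50.1% of those genes. Without L-1236 alone, 2 of the 8 did (BIRC2 and CFLAR). Among the members, DIABLO (0.94) was the steadiest and BIRC2 (7.48) the most variable, followed by CFLAR (3.28). Of the 33 probe sets, 21 were above background in all lines and 2 in none.

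**Figure D1:**
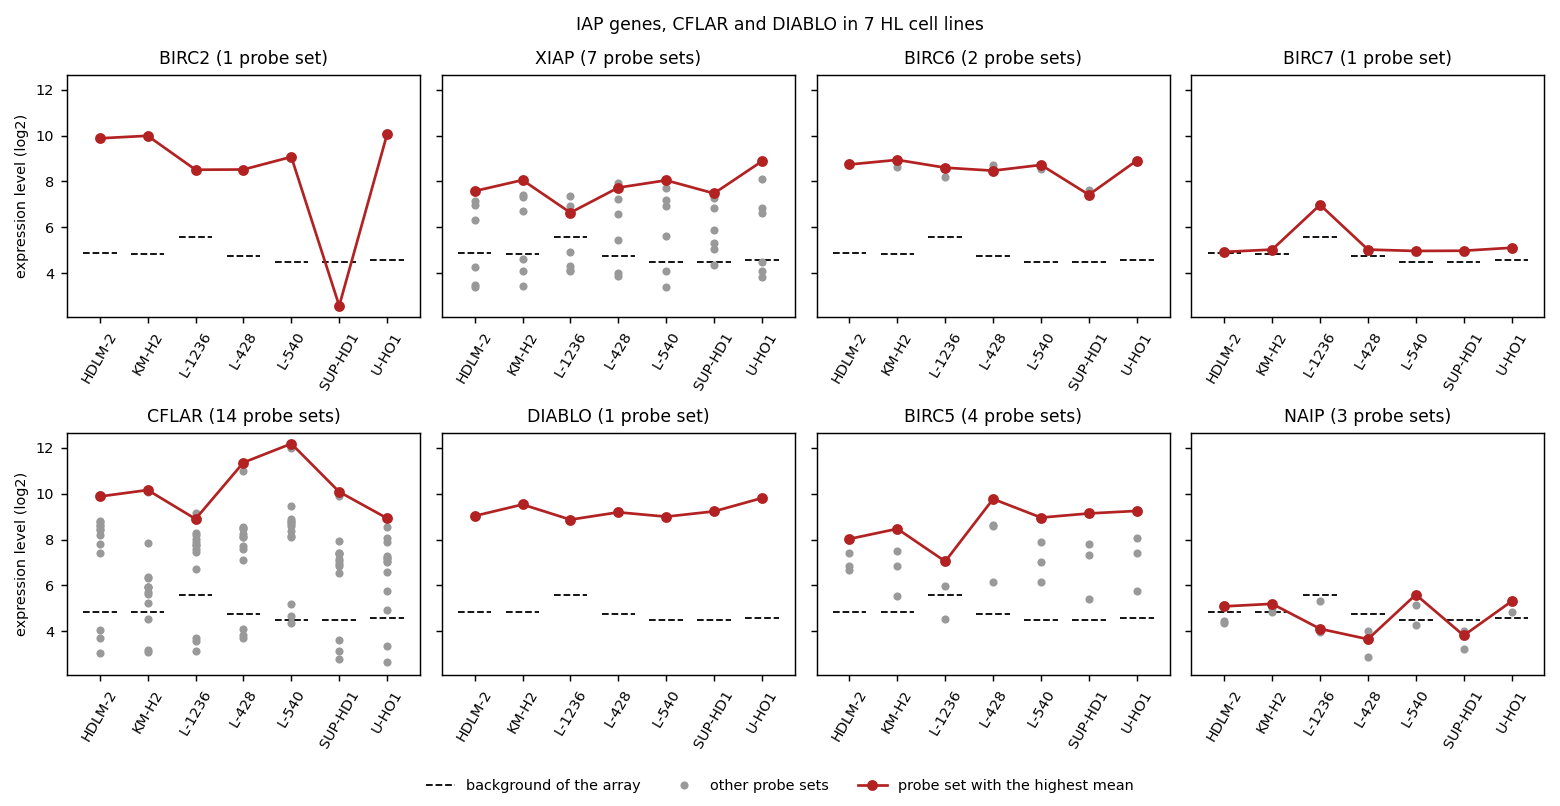
Expression level (log2, vertical axis) of each member in the 7 HL lines (horizontal axis). Red points joined by lines show the brightest probe set on average, grey points any further ones, and dashed bars each array's background. BIRC2 drops to 2.58 in SUP-HD1, below the background of 4.49, and lies between 8.51 and 10.06 in the other 6 lines.

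BIRC2 was well above background in 6 lines and below it in SUP-HD1. Its only probe set (202076_at) read 2.58 in SUP-HD1, against 10.06 in U-HO1, 9.99 in KM-H2, 9.88 in HDLM-2, 9.07 in L-540, 8.52 in L-428 and 8.51 in L-1236. The other 6 lines fell into a higher trio (U-HO1, KM-H2 and HDLM-2, closer together than the spread between probe sets) and lower values in L-540, L-428 and L-1236. SUP-HD1 stood at -6.76 relative to the mean of the others, 9.34 (SD 0.73, n = 6). With the SUP-HD1 value raised to background, the difference was -4.84. Of 14495 genes, 1 (BHLHE40) had a lower value of this kind in SUP-HD1. These values chose the gene and are given with no further reading. Since the gene has a single probe set here, no second probe set could be set beside it.

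Of the genes next to BIRC2, the one after it differed little between SUP-HD1 and the other lines, and the one before it was below background in most lines. TMEM123, the nearest measured gene after the pair and a cell surface mucin gene, read 10.18 in SUP-HD1 and averaged 10.48 in the other lines, a difference of -0.30. On the other side lay YAP1, the effector of the Hippo pathway, which was below background in SUP-HD1 (3.73) as in all lines but U-HO1 (7.52) and HDLM-2. Of the 20 measured neighbours, 10 on each side, 11 were above background in at least 1 line and 4 of these were so in SUP-HD1 (CCDC82, JRKL, TMEM123 and MMP20).

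The 4 neighbours above background in SUP-HD1 differed from the mean of the other lines by 0.08 (CCDC82), 0.12 (JRKL), -0.30 (TMEM123) and 3.83 (MMP20). The other 7 of the 11 were below background there, so that another line had to be higher. Differences of at least 1 below were seen for YAP1 (-1.10), MMP7 (-1.06) and MMP12 (-2.07), all of them below background in SUP-HD1 and far higher in 1 or 2 other lines. MMP12, a macrophage elastase, had 11.70 in KM-H2, and MMP7 had 8.21 in L-1236. MMP20, a tooth enamel protease, was the opposite case, with 6.60 in SUP-HD1 and at most 3.78 in the other lines. CCDC82 and JRKL are the outermost measured genes before the pair.

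**Figure D2:**
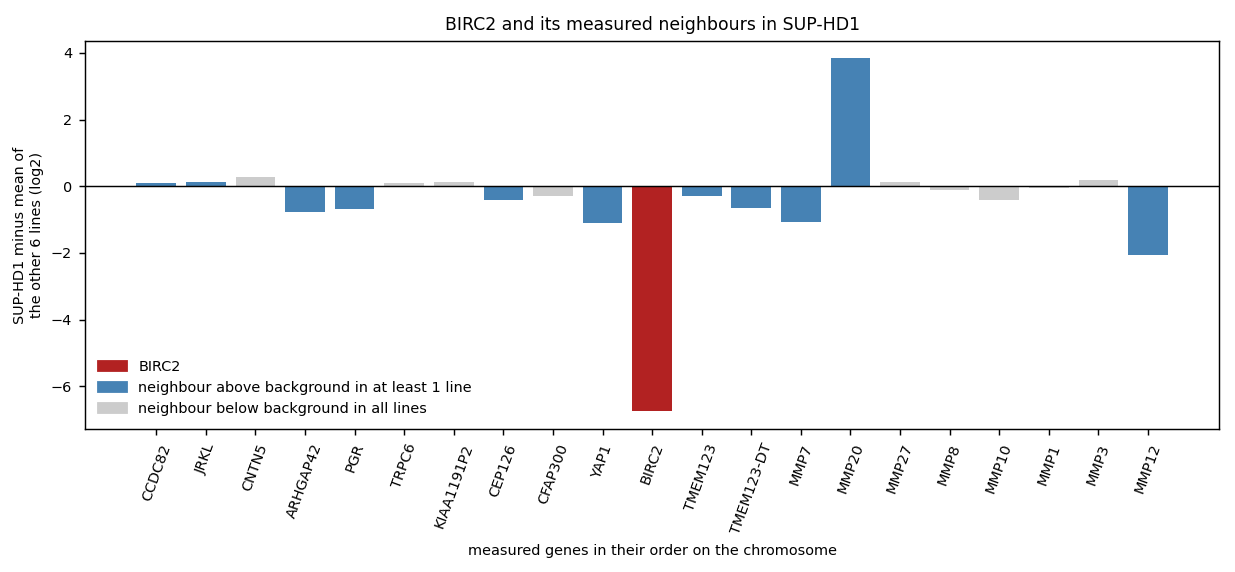
SUP-HD1 minus the mean of the other 6 lines (log2, vertical axis) for BIRC2 (red) and the 10 nearest measured genes on each side, in chromosomal order (horizontal axis, not to distance). Blue bars are neighbours above background in at least 1 line, grey bars those below it in all lines. BIRC2 stands at -6.76, TMEM123 next to it at -0.30 and MMP20 at 3.83.

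BIRC6 was the other member lowest in SUP-HD1, by far less than BIRC2. Its probe set with the highest mean (224635_s_at) read 7.42 in SUP-HD1, against 8.94 in KM-H2, 8.91 in U-HO1, 8.74 in HDLM-2, 8.72 in L-540, 8.60 in L-1236 and 8.47 in L-428. The 6 other lines were within 0.47 of each other, less than the spread between probe sets. SUP-HD1 stood at -1.31 relative to their mean of 8.73 (SD 0.18, n = 6). The second probe set (233093_s_at) gave the same lowest line, at 7.64 in SUP-HD1 against 8.20 to 8.83 in the others. BIRC6 lies on chromosome 2, away from BIRC2.

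Among the 28 pairs of measured members, BIRC2 and BIRC6 had the most similar pattern over the 7 lines, with Pearson's r = 0.99 and Spearman's rho = 0.93. The points share their arrays, and SUP-HD1 carries much of r, which was 0.91 over the 6 other lines. Among those 6 the BIRC6 levels differ by less than the spread between probe sets, and at 233093_s_at KM-H2 (8.65) came after U-HO1 (8.83), HDLM-2 (8.78) and L-428 (8.72), so their order carries little. UBA6, the activating enzyme that charges BIRC6, was likewise lowest in SUP-HD1, at 7.12 against 7.90 to 8.77. Its r with BIRC6 was 0.74 but rho was 0.00, and r was -0.42 without SUP-HD1, so the likeness lay in that line alone.

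The genes most like BIRC2 in pattern, among those with a range of at least 2, were BIVM, GNE, C21orf91, ONECUT2 and FAM24B, with r between 0.95 and 0.97 over 7 lines. Without SUP-HD1, r was 0.86 for C21orf91, 0.71 for BIVM, 0.70 for FAM24B, 0.60 for GNE and 0.23 for ONECUT2. GNE makes the precursor of sialic acid, and ONECUT2 is a homeobox transcription factor. Spearman's rho was 0.96 for C21orf91, 0.93 for FAM24B, 0.75 for GNE, 0.64 for BIVM and 0.61 for ONECUT2. All were chosen for r and share the low SUP-HD1 value.

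XIAP, the direct caspase inhibitor, was found in all lines and varied little for most of them. The probe set with the highest mean (228363_at) read 8.88 in U-HO1, 8.06 in KM-H2, 8.05 in L-540, 7.73 in L-428, 7.58 in HDLM-2, 7.48 in SUP-HD1 and 6.64 in L-1236. The 5 lines between the ends were within 0.58 of each other. U-HO1 differed from the mean of the others by 1.29 and L-1236 by -1.32, and these are the same lines whose arrays stood apart.

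The other probe sets of XIAP kept this order in part or not at all. 225859_at was likewise lowest in L-1236 (4.93, below background there) but highest in L-540 (6.95), with U-HO1 next (6.85). 225858_s_at was again highest in U-HO1 (8.11) but lowest in SUP-HD1 (6.84). 235222_x_at was lowest in U-HO1 (6.62) and highest in L-540 (7.71). Of the 7 XIAP probe sets, 228363_at, 225858_s_at and 235222_x_at were above background in all lines. The mean of all 7, which takes in probe sets below background, had a range of only 0.65.

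BIRC7 (livin), an IAP known from melanoma, was near background in all lines but 1. Its probe set read 6.98 in L-1236, against 5.11 in U-HO1, 5.03 in both KM-H2 and L-428, 4.98 in SUP-HD1, 4.97 in L-540 and 4.93 in HDLM-2. L-1236 lay 1.97 above the mean of the others, which were within 0.18 of each other. Background was also highest in L-1236, at 5.59 against 4.49 to 4.86, and the part of that array in the difference was not tested.

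CFLAR was read by 14 probe sets, more than any other member, and most of them placed L-540 at the top. The probe set with the highest mean (209939_x_at) read 12.18 in L-540, 11.36 in L-428, 10.16 in KM-H2, 10.08 in SUP-HD1, 9.88 in HDLM-2, 8.93 in U-HO1 and 8.90 in L-1236. L-540 differed from the mean of the other lines by 2.29 and L-428 by 1.34, while U-HO1 stood at -1.50 and L-1236 at -1.53. L-540 also had the most T- and NK-cell markers above background (5 of 8), with NKG7 at 11.22 and CD3E at 4.71, near the background of 4.51. Other markers of that list were highest elsewhere: CD3D in KM-H2, CD2 in HDLM-2, CD3G and CD7 in L-1236 and GNLY in U-HO1. The part of these markers in the CFLAR level of L-540 was not tested. KM-H2, SUP-HD1 and HDLM-2 differed by less than the spread between probe sets.

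Of the 14 CFLAR probe sets, 11 were above background in all lines, and 10 of these 11 were highest in L-540. For KM-H2 they split into groups, made after the values were seen. At 7 of the 11, KM-H2 was the lowest line, with differences of -2.52 to -1.73 from the mean of the others. Of the other 4, KM-H2 was still a full 1 below the mean of the others at 237367_x_at and stood at -0.29 at 239629_at, -0.06 at 209939_x_at and 0.00 at 210563_x_at.

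The 7 probe sets had a median level of 5.92 in KM-H2 (5.24 to 6.37), against 8.69 in L-540, 8.47 in HDLM-2, 8.24 in L-428, 7.90 in L-1236, 7.20 in U-HO1 and 7.15 in SUP-HD1. Their correlation with 209939_x_at was 0.15 to 0.50 over the 7 lines, whereas 210563_x_at followed it with r = 0.98. CFLAR is known to be spliced into long and short forms of cFLIP. Which form each probe set reads was not analysed here, and most of their names end in _x_at, which marks possible matches to other transcripts.

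**Figure D3:**
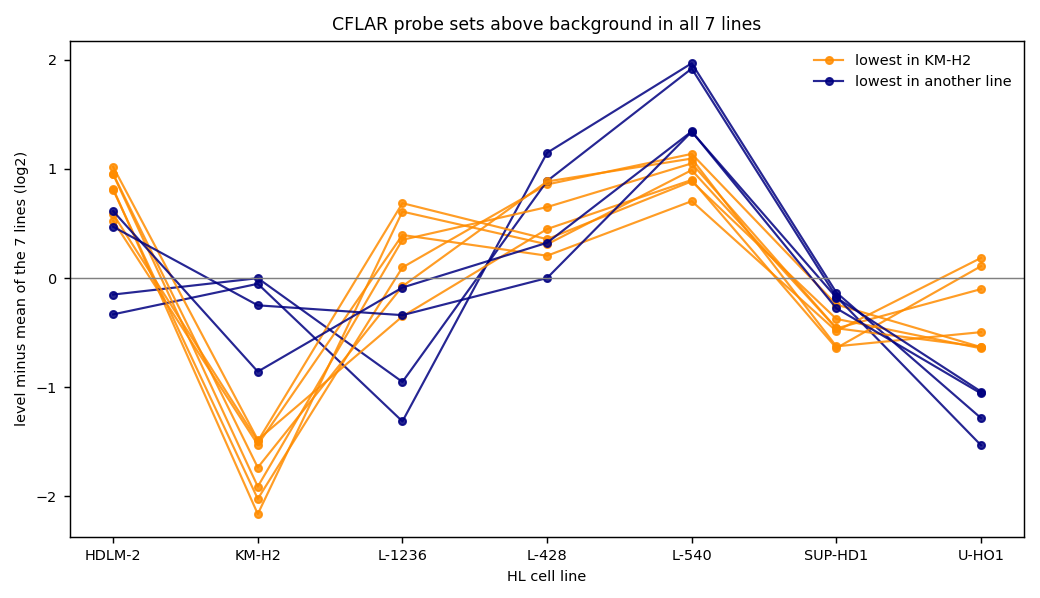
Level of each of 11 CFLAR probe sets in the 7 HL lines (horizontal axis) minus its own mean over the lines (log2, vertical axis). The 7 orange lines are probe sets lowest in KM-H2, the 4 blue lines the others. All but 1 of the 11 peak in L-540. The groups were made by whether KM-H2 was the lowest line, so their difference in KM-H2 follows from that choice.

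The genes most like CFLAR at 209939_x_at were ZNF557, LYPLAL1-AS1, TSPAN12, SLC25A39 and SLC19A1, with r between 0.94 and 0.97 over 7 lines. SLC19A1 is the reduced folate carrier and SLC25A39 a mitochondrial glutathione carrier. TNFAIP3 (A20), a brake on NF-kB and also its target, had r = 0.74 with CFLAR, with its highest levels in L-428 (12.16), SUP-HD1 (10.79) and L-540 (10.68). NFKBIA, another NF-kB target, had r = 0.53, and CASP8, the partner of cFLIP, had r = 0.01. Without L-1236 and U-HO1 these turned round, to 0.02 for NFKBIA and 0.81 for CASP8, while TNFAIP3 had 0.61, so that no order among the 3 can be read.

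DIABLO, the antagonist released from mitochondria, was the steadiest member. It read 9.81 in U-HO1, 9.53 in KM-H2, 9.23 in SUP-HD1, 9.19 in L-428, 9.03 in HDLM-2, 9.00 in L-540 and 8.87 in L-1236. No line differed by 1 from the mean of the others. HTRA2, a mitochondrial protease that likewise counters IAPs, had a range of 2.13, with 9.49 in L-540 at the top and 7.36 in L-1236 at the bottom.

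Of the 4 IAP antagonists, all of which were measured, 2 had a range of at least 2, beside 50.1% of all genes. XAF1, an interferon-induced partner of XIAP, had the largest, with 7.53 in U-HO1, 7.35 in HDLM-2 and 7.29 in L-428. It was below background in L-540 (2.80), SUP-HD1 (3.35) and L-1236 (4.65). SEPTIN4 was above background in HDLM-2 alone (5.24).

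BIRC5, the survivin gene, was highest in L-428 and lowest in L-1236. The probe set with the highest mean (202095_s_at) read 9.77 in L-428, 9.25 in U-HO1, 9.14 in SUP-HD1, 8.96 in L-540, 8.47 in KM-H2, 8.03 in HDLM-2 and 7.05 in L-1236. L-428 differed by 1.29 and L-1236 by -1.89 from the mean of the other lines. L-428 was also highest at 202094_at (8.58) and 210334_x_at (8.62), where the lowest lines were L-1236 (4.54, below background) and HDLM-2 (6.67). The fourth probe set, 1555826_at, went another way, with HDLM-2 (7.40) highest and SUP-HD1 (5.42) lowest.

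Of the chromosomal passenger complex, in which survivin works with Aurora B, borealin and INCENP, AURKB had the pattern closest to that of BIRC5 (r = 0.93, rho = 0.86 over 7 lines). AURKB read 9.28 in L-428 and 6.86 in L-1236, the same highest and lowest lines. CDCA8, for borealin, had r = 0.18 and INCENP r = 0.20, both with ranges under 2. Without L-1236 and U-HO1, r was 0.95 for AURKB, 0.54 for CDCA8 and 0.51 for INCENP. MKI67, a general marker of dividing cells, had r = 0.27 and was highest in L-540 (9.71) and HDLM-2 (9.64).

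The 5 genes most like BIRC5 were MRPS7, MIF4GD, FOXRED2, TUBE1 and SEH1L, with r between 0.97 and 0.98. MRPS7 and MIF4GD lie on chromosome 17, as BIRC5 does. Of the 100 genes most like BIRC5, 20 were on that chromosome, beside 5.47% of 7264 candidate genes, and 24 were so without L-1236 and U-HO1. Of the 100 most like CFLAR, 18 were on its chromosome 2, beside 6.68% of candidates, but 6 without those 2 lines. For BIRC2 the count was 6 on chromosome 11, beside 5.31%, and 10 without those lines. This count was added after the values were seen and carries no test.

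**Figure D4:**
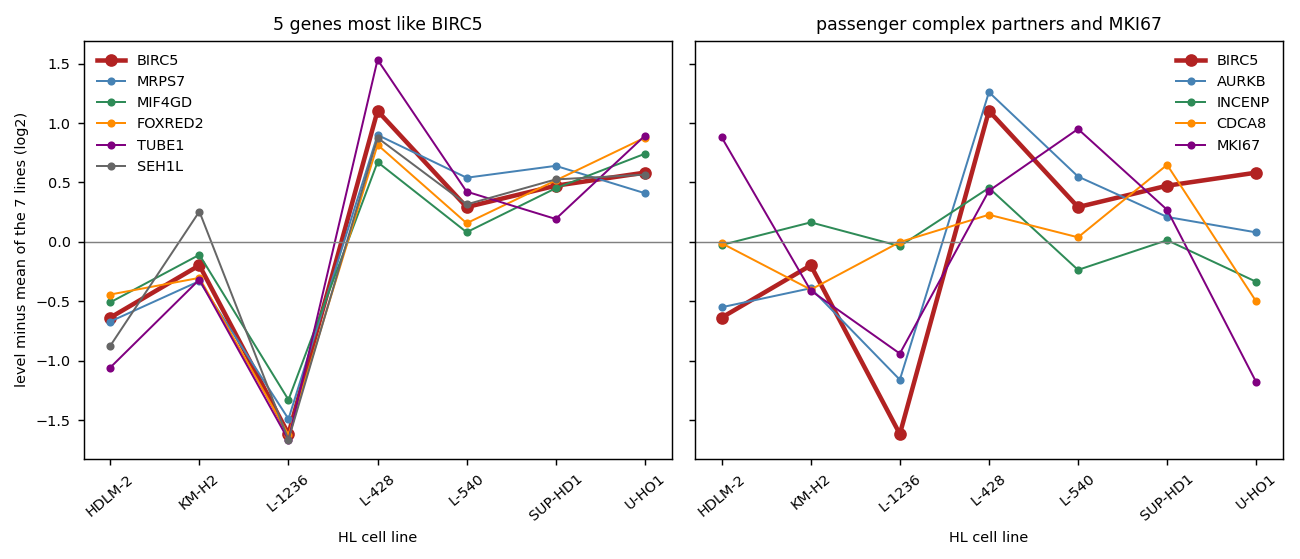
Level minus the mean of the 7 lines (log2, vertical axis) of BIRC5 (thick red) in the 7 HL lines (horizontal axis), with the 5 genes most like it (left) and with AURKB, INCENP, CDCA8 and MKI67 (right). The genes on the left were chosen for their likeness; on the right, AURKB follows BIRC5 with r = 0.93 and MKI67 has r = 0.27.

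NAIP was above background in 4 of the 7 lines. Its probe set with the highest mean (204861_s_at) read 5.60 in L-540, 5.31 in U-HO1, 5.20 in KM-H2 and 5.09 in HDLM-2, all above background. It read 4.11 in L-1236, 3.82 in SUP-HD1 and 3.66 in L-428, all below background. The differences of 1.07 in L-540, -1.01 in SUP-HD1 and -1.19 in L-428 therefore include values without a reliable level. With low values raised to background they were 0.53, -0.76 and -0.46, and the range of 1.94 was 1.11 with low values raised to background. The human genome holds near-identical copies of parts of NAIP, which these probe sets may also read. PYCARD (ASC), the adaptor of inflammasomes, had 8.64 in U-HO1 and 8.63 in HDLM-2 and was below background in L-428 (3.28), L-540 and KM-H2. CASP1, the inflammasome caspase, was highest in KM-H2 (7.42) and HDLM-2 (7.39).

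Counted over all members and lines, 17 of 56 differences from the mean of the other lines reached 1. SUP-HD1 had 3 members lower (BIRC2, BIRC6 and NAIP) and none higher, where 10.5% of genes were lower and 11.8% higher. The BIRC2 call restates the value that chose the gene, and NAIP was below background in SUP-HD1. With low values raised to background, NAIP stood at -0.76 there. L-1236 had 3 lower (XIAP, BIRC5 and CFLAR) and 1 higher (BIRC7), and on that array 25.7% of genes were lower and 11.5% higher. U-HO1 had XIAP and BIRC2 higher and CFLAR lower, beside 15.4% of genes higher and 12.3% lower. L-540 had CFLAR and NAIP higher and none lower (10.9% and 10.3% of genes), and L-428 had CFLAR and BIRC5 higher and NAIP lower (10.2% and 8.94%). HDLM-2 had BIRC2 higher and none lower (12.7% and 9.05%), as had KM-H2 (12.9% and 11.2%). The higher BIRC2 calls of HDLM-2, KM-H2 and U-HO1 come from having SUP-HD1 in the mean, since without it their differences were 0.65, 0.78 and 0.87. Leaving SUP-HD1 out altogether left 10 calls.

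Several of these calls rested on the probe set or the normalization. With the mean of all probe sets, the L-1236 difference was -0.50 for XIAP and -0.15 for CFLAR. The U-HO1 difference was 0.24 for XIAP and -0.61 for CFLAR, and the L-428 difference 0.54 for CFLAR. NAIP stood at 0.59 in L-540 and -0.95 in SUP-HD1. All of these calls were lost, while KM-H2 reached -1.16 for CFLAR. That mean takes in probe sets below background. After a second quantile normalization, XIAP stood at -0.63 and CFLAR at -0.93 in L-1236. Without _x_at and _s_at probe sets, CFLAR stood at -0.40 in L-1236 and 0.00 in L-428. NAIP in L-540 turned to -0.38 under both of these settings, which also ended the NAIP calls of L-428 and SUP-HD1. BIRC5 in L-1236 and L-428, and CFLAR in L-540, reached 1 in the same direction under these 3 settings.

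**Figure D5:**
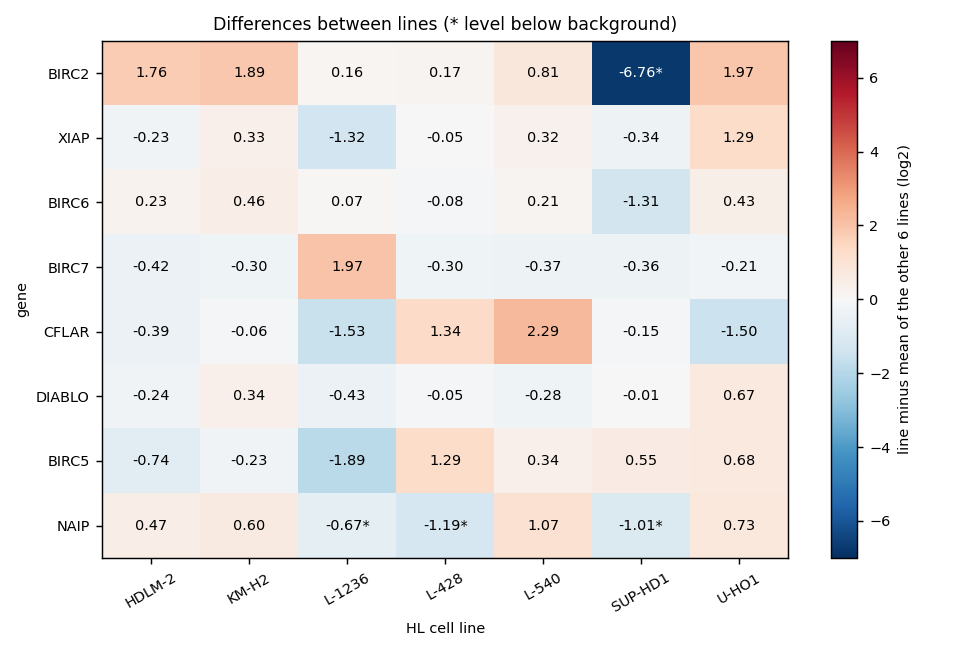
Difference of each HL line (columns) from the mean of the other 6 lines (log2, colour and printed value) for each member (rows). An asterisk marks a level below the background of its array. The SUP-HD1 value of BIRC2, -6.76, is the largest, and CFLAR in L-540 stands at 2.29.

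Among the genes that work with IAPs and cFLIP, ranges of at least 2 were fewer for caspases than for receptor genes. Of 8 measured caspases and apoptosome genes, 1 had a range of at least 2 (CASP6, an executioner caspase, with 9.03 in HDLM-2 and 6.55 in L-1236). Of 9 death receptors and ligands above background in at least 1 line, 8 did, beside 50.1% of all genes. The median range of the 9 was 2.96, beside 2.00 over all genes. Some of these ranges include levels below background. With low values raised to background, the range of TNFRSF10A went from 3.57 to 1.88 and that of TNF from 4.28 to 3.59. TNFRSF10D was above background in L-540 alone (5.87) and TNFRSF1A in KM-H2 alone (5.75). Their ranges of 2.96 and 2.12 therefore also rest on low values. The count of 8 was made without raising low values, so it overstates how many of the 9 differ by 2 above background. TNFSF10, the ligand TRAIL, was highest in SUP-HD1 (9.52) and lowest in U-HO1 (5.31).

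In the TNF receptor signalling complex, where BIRC2 acts, 12 of 18 measured genes had a range of at least 2, with a median of 2.19, beside 50.1% and 2.00 over all genes. TRAF3, which together with BIRC2 keeps the noncanonical NF-kB pathway off, was high in KM-H2 (9.12) and below background in U-HO1 (2.87), and it read 6.79 in SUP-HD1. TRAF5 was below background in KM-H2 (2.91) and highest in HDLM-2 (8.41). CYLD, a deubiquitinase that opposes BIRC2, was lowest in KM-H2 (5.38) and had 9.04 in both HDLM-2 and L-540. In SUP-HD1, none of the 18 differed by 1 in either direction, beside 11.8% of all genes higher and 10.5% lower.

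Of the 15 NF-kB target genes, 13 had a range of at least 2, beside 50.1% of all genes. In KM-H2, 7 were at least 1 higher and none lower (12.9% and 11.2% of all genes), with a median difference of 0.78 beside -0.03 over all genes. BCL2A1, an antiapoptotic BCL2 relative, had 11.24 and the chemokine gene CCL5 had 12.08 in KM-H2. In L-1236, whose array stood apart, 8 were lower and 2 higher (25.7% and 11.5% of all genes), with a median of -1.10, beside -0.34 over all genes. SUP-HD1 had 1 higher and 2 lower (11.8% and 10.5% of all genes), with a median of 0.07 beside 0.06.

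The remaining lists had fewer genes. Of 14 genes of the chromosomal passenger complex and mitosis, 4 were at least 1 higher in L-428 (10.2% of all genes) and 5 lower in U-HO1 (12.3%), among them PLK1 with 8.58 in L-428 and 4.70 in U-HO1. U-HO1 was also the array with the high 18S signal and the gap between the ends of ACTB, whose part in these values was not tested. Of the 3 necroptosis genes, 2 had a range of at least 2 (MLKL and RIPK3), beside 50.1% of all genes. MLKL had 8.17 in KM-H2 and 4.61 in U-HO1. RIPK3 had a range of 2.02, or 1.26 with low values raised to background. Of the 3 measured ubiquitin partners of BIRC6, KIF23 and USP8 were lowest in L-1236 (5.76 and 5.48). Some further genes of these lists were not analysed here.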

How the data were processed

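Total RNA of 7 HL cell lines was measured on 1 Affymetrix array each. The authors deposited log2 levels made by RMA background correction and quantile normalization. The sources used here give no tool versions. The deposited arrays did not share 1 distribution, since a second quantile normalization still moved values. XIAP in L-1236, for example, went from -1.32 to -0.63. Of 54675 probe sets, 41097 had 1 gene symbol in the platform annotation, 1801 several and 11777 none. Symbols were updated through the RefSeq gene table (GRCh38.p14), and each gene took the values of its brightest probe set, by mean over the lines. Background was set per array from 105 probe sets of olfactory receptors, at their 95th percentile, since array values carry no detection call, and signal over it limits the precision of low genes. With 1 array a line there was no test: a difference is a line minus the mean of the other 6 lines, called at 1 or more (log2). The pooled SD between probe sets came from 13377 probe sets of 5045 genes.

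Genes named are all members, up to 4 genes per list with the largest range, the 5 genes of highest Pearson's r for BIRC2, CFLAR and BIRC5, and 10 neighbours a side. INCENP, CDCA8, MKI67, NFKBIA, TNFAIP3, CASP8 and BHLHE40 were named after their values were seen, as were the 28 pairs. The kappaB motif was searched as its degenerate consensus on both strands. The members and lists were chosen with earlier results of these data known. The calculation was tested on simulated data. Python 3.11.15, numpy 2.4.6, pandas 2.3.3 and matplotlib 3.10.9 were used. Alternatives took other probe sets, backgrounds and normalizations, other thresholds, or left out lines.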

Additional observations from a re-analysis of the deposited data

Results flagged for a closer look

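A line stood apart from the other 6 for 14 of 47 genes examined, its gap to the next line as a share of the range, exceeding Dixon's 95% critical value for 7 values. Chance alone does so in about 1 in 20 groups, but the count cannot be read against that rate, since list genes were named for their large range and BIRC2 was chosen for its SUP-HD1 value. Among the 8 measured members these were BIRC2 in SUP-HD1 (2.58, next L-1236 with 8.51), which restates the choice, BIRC6 in SUP-HD1 (7.42, next L-428 with 8.47) and BIRC7 in L-1236 (6.98, next U-HO1 with 5.11).

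L-1236 was the line apart in 5 of the pathway genes, all at its low end. These were CASP6 (6.55, next SUP-HD1 with 8.01), TNFRSF10A, a TRAIL receptor (3.90, next SUP-HD1 with 6.16), CCND2 (7.99, next KM-H2 with 11.22), KIF23 (5.76, next L-540 with 7.64) and USP8 (5.48, next U-HO1 with 7.25). TNFRSF10A and USP8 lay below background in L-1236. The L-1236 array had the fewest genes above background, and its part in these values was not tested.

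The other pathway genes were TNF, below background in L-540 (3.82, next SUP-HD1 with 6.30), CYLD in KM-H2 (5.38, next L-1236 with 7.65) and ZBP1 in HDLM-2 (3.05, next KM-H2 with 3.99). Both ZBP1 values were below background, and ZBP1 was above it in SUP-HD1 alone (4.65). Among the neighbours of BIRC2, MMP7 was high in L-1236 (8.21, next L-540 with 3.82), MMP20 in SUP-HD1 (6.60, next L-1236 with 3.78) and MMP12 in KM-H2 (11.70, next HDLM-2 with 5.15).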

How the results depend on the processing

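The BIRC2 difference of SUP-HD1, the value that chose the gene, was -6.92 to -6.61 with each other line left out in turn and -4.84 with low values raised to background. The settings on probe sets could not move it, since the gene has 1 probe set. Of 748 values of a member in a line under alternatives, 692 moved by less than the spread between probe sets and 54 moved by more. In the other 2, a difference of at least 1 changed sign. Both of these were NAIP in L-540, at -0.38 without _x_at and _s_at probe sets and -0.38 after a second quantile normalization. Smaller differences changed sign too, such as NAIP in L-1236, from -0.67 to 0.81 without _x_at and _s_at probe sets.

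Ranges depended on single lines and on the probe set. With each line left out in turn they lay between 1.55 and 7.48 for BIRC2 (lowest without SUP-HD1), 0.47 and 1.52 for BIRC6 (lowest without SUP-HD1), 0.18 and 2.05 for BIRC7 (lowest without L-1236), 1.74 and 2.72 for BIRC5 (lowest without L-1236), 1.40 and 2.24 for XIAP (lowest without L-1236, and 1.42 without U-HO1) and 2.46 and 3.28 for CFLAR (lowest without L-540). Without both L-1236 and U-HO1, an alternative added after the data were seen, they were 0.58 for XIAP, 1.74 for BIRC5, 0.10 for BIRC7 and 2.30 for CFLAR. With the mean of all probe sets they were 0.65 for XIAP, 2.12 for BIRC5 and 2.16 for CFLAR. Without _x_at and _s_at probe sets they were 4.04 for BIRC5, 1.37 for NAIP and 2.38 for CFLAR, and with the probe set of largest variance 4.04 for BIRC5. The range of 4.04 is that of 202094_at, which was below background in L-1236. A second quantile normalization gave 1.62 for XIAP, 2.00 for BIRC5 and 2.68 for BIRC7. Raising low values to background gave 5.57 for BIRC2 and 1.11 for NAIP.

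The 17 calls of a member in a line became 11 with the mean of all probe sets and 10 to 16 with each line left out (fewest without SUP-HD1). Of 135 values of r for the genes most like a member, 25 moved, the lowest to 0.23 (BIRC2 with ONECUT2 without SUP-HD1). Calls over the pathway lists numbered 43 at a difference of 2. The share of all genes at that difference was not taken, so this count cannot be called high or low. No paired analysis was possible because every line stood on 1 array. BIRC3 gave no value under any setting.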
